A study of Homo sapiens with 6 samples.

Results

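The immunoglobulin heavy chain, kappa light chain and lambda light chain loci, which encode the 2 kinds of chain of an antibody, were examined for open chromatin in KMS-11 cells. Members were all listed peaks in 3 fixed windows of the hg38 genome, merged over the lists, which gave 711 regions of 378071 in the whole series. Of these, 299 lay in the heavy chain window (chr14:105380001-106880000, 1.5 Mb), 172 in the kappa window (chr2:88650001-90450000, 1.8 Mb) and 240 in the lambda window (chr22:21820001-23130000, 1.31 Mb). KMS-11 is an established human line of multiple myeloma, a cancer of antibody-secreting plasma cells. Both groups are labelled wild type (WT) in genotype: 3 control libraries carry the treatment label LentiV2 and 3 knockdown libraries the label LentiV2_ATF4g3. Only this guide label was used, how it acts is not stated, and titles number the samples of a group as biological replicates. ATF4 is a transcription factor that cells make more of when amino acids run short or unfolded proteins build up. The assay was ATAC-seq: the Tn5 transposase cuts and tags accessible DNA, and the authors' caller listed the peaks of each library. Peak lists do not measure the RNA or protein of ATF4, so the knockdown itself was not checked here.

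An antibody gene is assembled in developing B cells. In the heavy chain locus a variable (V), a diversity (D) and a joining (J) segment are joined in front of the constant genes, and in the light chain loci a V and a J segment, with loss or inversion of the DNA between the joined segments. Each V and J segment is flanked by a recombination signal, a heptamer and a nonamer that the RAG enzyme recognises. Class switching later brings another heavy chain constant gene behind the joined segments, by recombination between repeats that lie in front of the constant genes. Enhancers lie between the J segments and IGHM and downstream of the constant genes, and most functional V segments have a promoter with an octamer that POU2F1 and POU2F2 bind. The kappa V segments form a proximal cluster and an inverted distal copy of it. KMS-11 is known for translocations that join the heavy chain locus to NSD2 and FGFR3 and to MAF.

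The lists hold positions and the table of promoters used here holds no immunoglobulin segment, so the letters shown are those of neighbouring RefSeq start sites and microRNA hairpins that lie under the peaks described below. The first pair are the start sites under the strongest heavy chain and kappa peaks, at TEDC1 (chr14:105490996-105491295, plus strand) and RPIA (chr2:88691423-88691722, plus strand), 250 bases before to 50 after the start, GRCh38.p14, with each CpG in capitals.
TEDC1: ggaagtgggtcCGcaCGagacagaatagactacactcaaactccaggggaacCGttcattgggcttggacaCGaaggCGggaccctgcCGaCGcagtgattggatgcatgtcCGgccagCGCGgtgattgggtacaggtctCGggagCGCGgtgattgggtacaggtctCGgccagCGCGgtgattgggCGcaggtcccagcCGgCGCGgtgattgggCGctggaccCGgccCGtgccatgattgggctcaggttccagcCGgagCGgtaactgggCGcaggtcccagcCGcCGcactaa
RPIA: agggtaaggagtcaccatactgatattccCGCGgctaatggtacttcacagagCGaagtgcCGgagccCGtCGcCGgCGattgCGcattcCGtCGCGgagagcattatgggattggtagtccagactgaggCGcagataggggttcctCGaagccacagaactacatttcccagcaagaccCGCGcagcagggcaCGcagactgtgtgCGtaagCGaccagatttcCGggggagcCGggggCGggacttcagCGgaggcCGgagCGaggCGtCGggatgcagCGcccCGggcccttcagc
They hold 28 and 29 CpG, more than 73.8% and 75.8% of the 35116 RefSeq windows of this length, whose median is 14. The next windows lie under peaks of the light chain genes themselves, LOC124907856 beside the kappa constant gene IGKC (chr2:88855555-88855854, minus strand) and LOC101929255 at IGLV1-40 (chr22:22409148-22409447, minus strand), again with CpG in capitals.
LOC124907856: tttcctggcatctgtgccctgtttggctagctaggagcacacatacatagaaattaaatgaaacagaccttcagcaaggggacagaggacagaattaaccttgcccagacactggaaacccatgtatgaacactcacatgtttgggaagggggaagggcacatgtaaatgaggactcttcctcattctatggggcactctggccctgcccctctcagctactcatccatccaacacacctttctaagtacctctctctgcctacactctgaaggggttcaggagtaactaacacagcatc
LOC101929255: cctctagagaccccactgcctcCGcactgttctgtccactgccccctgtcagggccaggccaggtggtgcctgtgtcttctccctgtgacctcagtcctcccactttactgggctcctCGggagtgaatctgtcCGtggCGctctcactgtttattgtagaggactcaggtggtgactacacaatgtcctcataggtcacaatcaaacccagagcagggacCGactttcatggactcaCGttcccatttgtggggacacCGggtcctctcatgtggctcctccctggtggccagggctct
The window beside IGKC holds 0 CpG and that at IGLV1-40 holds 7, below the median of 22 in the 19 windows of these loci that were under a peak in all 6 libraries. LOC102724977 (chr14:106657645-106657944, plus strand) runs over the V segment IGHV3-64, and the capitals mark a recombination heptamer, CACAGTG on the strand of the V segment.
LOC102724977: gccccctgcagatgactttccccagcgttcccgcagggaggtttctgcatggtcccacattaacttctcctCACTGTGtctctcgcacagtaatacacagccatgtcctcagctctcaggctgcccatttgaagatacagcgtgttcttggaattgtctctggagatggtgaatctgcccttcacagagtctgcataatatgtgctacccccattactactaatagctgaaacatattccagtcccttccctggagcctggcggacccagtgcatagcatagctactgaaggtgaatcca
That heptamer, at chr14:106657716-106657722, borders the lowest annotated position of IGHV3-64, with 0 bases between them. As IGHV3-64 is read towards lower positions, the heptamer follows the end of the V segment. The heptamer was found in 7 of 52 windows of the loci and in 1882 of all windows (5.36%), counting both strands. The nonamer ACAAAAACC was in 1 of the 52 windows and in 0.256% of all. The octamer ATGCAAAT, the ATF4 and C/EBP site TGATGCAAT, which shares 6 of its letters with the octamer, and the kappa B site were in 0 of the 52 windows, against 1.77%, 0.236% and 0.191% of all. These counts describe letters in these windows, which do not include the V segment promoters.

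Repeats of the switch region in front of IGHM can be read in microRNA hairpins annotated there. The pentamers GAGCU and GGGCU, letters of the human switch repeats, are in capitals in MIR4537 (chr14:105859484-105859553, minus strand) and MIR4538 (chr14:105858165-105858242, minus strand).
MIR4537: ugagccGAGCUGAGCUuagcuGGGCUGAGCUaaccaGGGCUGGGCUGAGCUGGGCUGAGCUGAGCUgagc
MIR4538: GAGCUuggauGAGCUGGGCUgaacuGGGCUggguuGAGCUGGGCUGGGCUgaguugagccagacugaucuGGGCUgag
They hold 10 and 8 pentamers, and 5 of 1562 hairpins in the RefSeq table (0.320%) hold at least 4. MIR4537 lay under a peak of all 6 libraries, and MIR4538 lay under no region.

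The lists as a whole set the scale. They held 220250 to 238246 summits, covering 67.0 to 70.7 Mb in controls and 63.0 to 63.9 Mb in knockdown libraries. The library background, the most common local background of a list and a measure of its depth, was 2.79 to 3.52 overlapping tags in controls and 2.15 to 2.51 in knockdown libraries. The caller's −log10 q rises with depth. Its median over all summits was 8.39 to 9.93 in controls and 3.51 to 4.41 in knockdown libraries, so fewer tags in the knockdown lists accompany every lower −log10 q below, and their part in it was not tested. Against the labelled cell type, a peak with −log10 q of at least 2 lay within 1 kb of 8 of 8 plasma cell markers in all 6 libraries. The same held for 2 of 5 B cell markers, with MS4A1 at 0 libraries, for 5 of 5 T and NK cell markers, 0 of 5 myeloid and 3 of 5 epithelial and stromal markers. Over markers with a listed peak in all 6 libraries, the median of the lowest −log10 q was 49.99 for the plasma cell list. It was 23.7 for the epithelial and stromal, 16.3 for the B cell and 13.2 for the T and NK cell list. Single markers stood higher, at 83.2 and 102 in the T and NK cell list and at 110 in the B cell list.

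The heavy chain window was the densest of the 3. Overlapping summits were merged into peaks, which numbered 187, 193 and 177 in controls 1, 2 and 3 and 168, 175 and 183 in knockdown libraries 1, 2 and 3. This is 118 to 129 peaks per Mb in controls and 112 to 122 in knockdown libraries, where the whole lists had 45.7 to 54.6 and 55.5 to 58.1. The groups overlapped in peak number (185.7 ± 8.08 against 175.3 ± 7.51, SD, n = 3; exact permutation test, two-sided, p = 0.2). Kappa was the sparsest, with 102, 97 and 91 peaks in controls and 91, 95 and 103 in knockdown libraries, or 50.6 to 57.2 per Mb. Lambda held 127, 130 and 130 against 119, 144 and 137, or 90.8 to 110 per Mb. The number of peaks in the light chain loci did not separate the groups (exact permutation p = 1 for kappa and p = 0.7 for lambda).

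The length of DNA under those peaks was smaller in the knockdown lists at all 3 loci. Heavy chain peaks covered 97.7, 92.4 and 96.8 kb in controls and 76.2, 75.4 and 83.0 kb in knockdown libraries (95.6 ± 2.84 against 78.2 ± 4.18 kb, SD, n = 3, exact permutation p = 0.1). No control was as low as any knockdown library, and 0.1 is the smallest p that 3 against 3 can give in this two-sided test. Since the knockdown lists were shorter everywhere, the share of each list that fell in the locus was compared. The heavy chain share was 0.138, 0.132 and 0.144% in controls and 0.120, 0.120 and 0.130% in knockdown libraries (ratio of means 0.892, exact permutation p = 0.1, adjusted over the 3 loci 0.15). Kappa took 0.0613, 0.0583 and 0.0601% against 0.0535, 0.0547 and 0.0576% (ratio 0.922, exact permutation p = 0.1, adjusted 0.15). For lambda the shares were 0.0914, 0.0871 and 0.0996% against 0.0756, 0.0855 and 0.0910%, and the groups overlapped (ratio 0.907, exact permutation p = 0.2, adjusted 0.2). Heavy and kappa shares of all controls thus lay above those of all knockdown libraries, which 3 against 3 libraries cannot bring under a p of 0.05. With only summits of −log10 q of at least 5 the log2 ratio of the shares turned to 0.0492 for heavy and 0.0365 for kappa (exact permutation p = 0.3 for both).

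**Figure D1:**
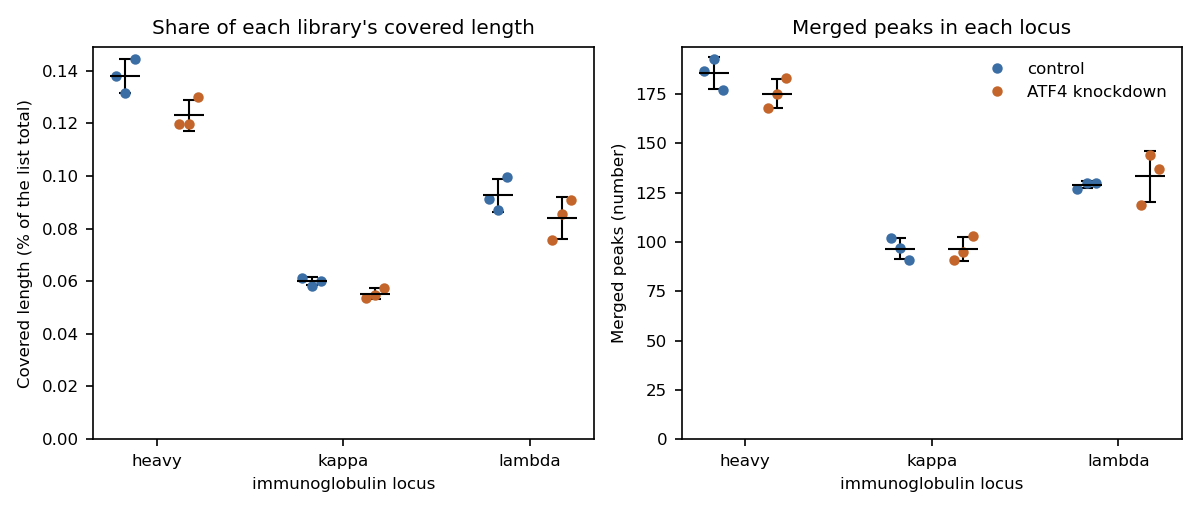
Left, the share of each library's covered length (% of the list total) in the heavy, kappa and lambda loci; right, the number of merged peaks. Points are the 3 control and 3 ATF4 knockdown libraries, with mean and SD; the heavy and kappa shares do not overlap between groups (0.132 to 0.144% against 0.120 to 0.130% for heavy), whereas peak numbers do.

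Median folds overlapped between groups at the heavy and kappa summits and were lower in the knockdown lists at lambda, as they were over whole lists. The fold is the authors' ratio of pileup to local background. Over all summits its median was 3.89, 4.18 and 3.98 in controls and 3.37, 3.49 and 3.51 in knockdown libraries, 0.860 times as high on average (exact permutation p = 0.1). Knockdown means were 0.990 times those of controls at heavy, 0.946 times at kappa and 0.831 times at lambda summits, and whether a locus differs from its list was not tested. The median was 3.94, 4.28 and 3.89 over heavy chain summits in controls and 3.96, 4.03 and 3.99 in knockdown libraries. These overlap (exact permutation p = 1). In lambda the medians were 4.72, 5.19 and 4.35 against 4.06, 3.80 and 3.99, with every control above every knockdown library (exact permutation p = 0.1, adjusted over the 3 loci 0.3). Kappa medians, 4.06, 4.21 and 4.40 against 3.99, 4.06 and 3.93, overlapped (exact permutation p = 0.2). The local background at heavy chain summits was 2.30, 2.82 and 2.59 times the library background in controls and 1.88, 1.76 and 1.75 times in knockdown libraries. It was closer to the library background in kappa (means of 1.39 and 1.196 times) and lambda (1.68 and 1.48 times). Median −log10 q was 10.9, 12.5 and 10.9 against 8.02, 8.42 and 7.59 for heavy, 9.89, 10.2 and 10.1 against 5.76, 6.71 and 6.22 for kappa and 13.6, 13.3 and 11.9 against 6.39, 4.73 and 6.39 for lambda, with no overlap (exact permutation p = 0.1 each).

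**Figure D2:**
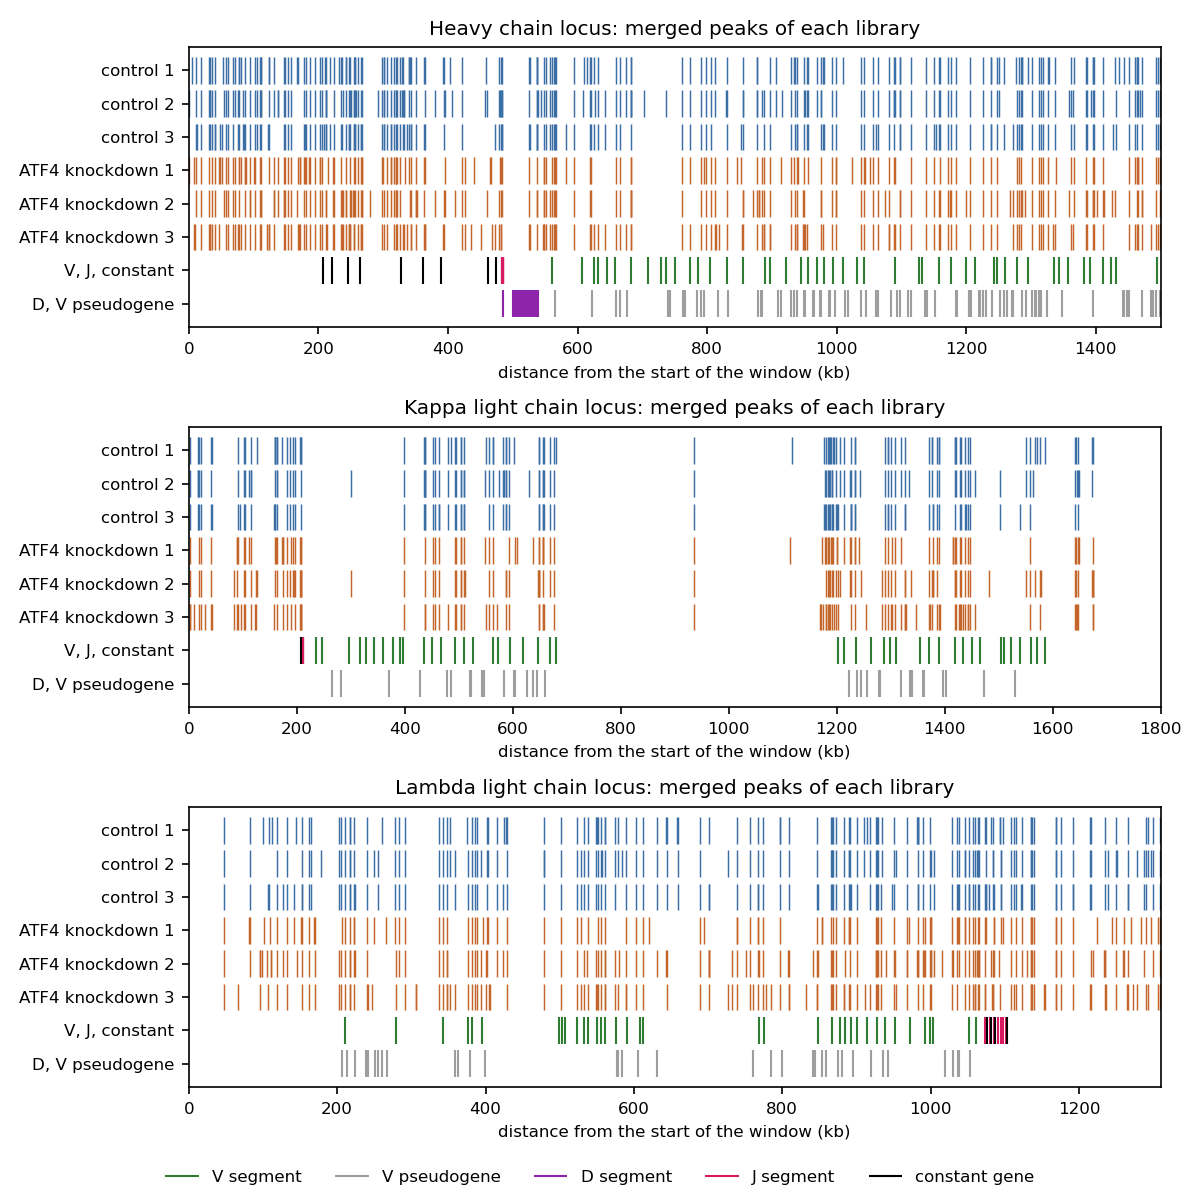
Merged peaks of each of the 6 libraries as ticks along the heavy, kappa and lambda windows (distance from the window's start, kb), with V, D, J and constant segments below. Peaks are dense over the heavy and lambda V clusters, while the kappa locus has blank stretches of 255 and 178 kb between its V clusters and 98.1 and 91.5 kb from its J segments into the proximal cluster.

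Regions with a −log10 q of at least 2 in any library were merged over the 6 lists to compare them, which left 507 in the loci. Of these, 214 (42.2%) were present in all 6 libraries, against 28.7% of all 216003 regions. By locus this was 99 of 217 for heavy (45.6%), 48 of 126 for kappa (38.1%) and 67 of 164 for lambda (40.9%). Ranked by the lowest −log10 q over the 6 libraries, the strongest regions of the heavy and kappa windows lay at the ends of other genes. At TEDC1, a gene of centriole assembly, a region at chr14:105490412-105491981 had −log10 q of 681, 688 and 672 in controls and 344, 341 and 404 in knockdown libraries. RPIA, an enzyme of the pentose phosphate pathway, carried the strongest kappa region at chr2:88690998-88692182 (634, 627 and 538 against 252, 275 and 298). Among the strongest regions of the lambda window were those at ZNF280B (252, 229 and 258 against 132, 128 and 146), the phosphatase gene PPM1F (206, 270 and 283 against 123, 138 and 134), the ends of RSPH14 and GNAZ (268, 276 and 276 against 116, 142 and 147) and chr22:22935002-22936216 downstream of the constant genes (237, 365 and 344 against 122, 105 and 137). In all of these 6 regions the knockdown libraries lie below every control on this depth-bound scale. In controls 1 and 2 the highest lambda values, 271 and 435, were at a region 5.53 kb downstream of the constant gene IGLC7. In control 3 the highest, 344, was at chr22:22935002-22936216.

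By the same rank, the next heavy chain regions lay at relic V pseudogenes and downstream of IGHA1. The region chr14:106830603-106831749 near IGHVIII-76-1 had −log10 q of 432, 531 and 376 in controls and 259, 195 and 317 in knockdown libraries. Those at IGHVIII-26-1 (382, 330 and 278 against 180, 183 and 220) and IGHVIII-38-1 (327, 308 and 260 against 158, 148 and 171) followed. The fifth was chr14:105679688-105681338, downstream of IGHA1 (364, 305 and 334 against 143, 180 and 180). A region downstream of IGHA2, described below, exceeded the latter 3 in every control but ranked lower for its knockdown values. In kappa the immunoglobulin regions of highest rank were chr2:88837789-88838760, downstream of IGKC (319, 327 and 342 against 131, 126 and 182), chr2:88831734-88833073 beside it (163, 197 and 186 against 76.1, 72.9 and 107) and the V segment IGKV3-20 (187, 211 and 175 against 52.2, 64.5 and 87.7).

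Of the heavy chain constant genes, only the alpha genes had a region within 500 bp in all 6 libraries. At IGHA2 the −log10 q was 68.0, 70.5 and 85.5 in controls and 24.3, 29.9 and 32.5 in knockdown libraries, and at IGHA1 it was 114, 145 and 118 against 21.5, 49.9 and 64.1. No knockdown library reached the lowest control at either gene. IGHG1, the gamma constant gene, had a region in 5 libraries (9.21 in control 1, 11.7 in control 3 and 4.98, 2.76 and 4.28 in knockdown libraries), with none listed in control 2. IGHD and IGHM had one in 1 library each, and IGHE, IGHG2, IGHG3 and IGHG4 in 0. IGKC, the only kappa constant gene, had a region in all 6 (86.8, 65.4 and 88.2 against 47.6, 34.8 and 37.3), which also holds the LOC124907856 window printed above. In lambda, IGLC1 had a region in 4 libraries, IGLC2 in 2 and IGLC3 and IGLC7 in 0. The J segments followed the constant genes. IGHJ6 and its neighbour IGHJ3P shared a region in all 6 (9.17, 8.31 and 12.6 against 14.1, 9.83 and 3.79), the other 7 heavy chain J segments had none in all 6, and neither did the 5 kappa or 7 lambda J segments. In the knockdown libraries the IGHJ6 values overlap those of the controls.

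Among the 27 D segments, IGHD3-9 and IGHD3-10 shared the only region found in all 6 libraries, at chr14:105904711-105906185. Its −log10 q was 50.7, 71.8 and 69.0 in controls and 36.4, 38.5 and 46.4 in knockdown libraries. To set such values against the rest of a list, regions listed in all 6 libraries, 68050 over the genome, were ranked within each library as percentiles of −log10 q. The D segment region stood at the 54.1, 59.6 and 63.8 percentile in controls and at 70.5, 71.0 and 70.9 in knockdown libraries, which is higher with no overlap. The J and D stretch as a whole (56.3 kb) held 5 merged peaks in each control and 2, 3 and 3 in knockdown libraries, which covered 5.05, 4.94 and 5.27% of it against 2.50, 3.87 and 3.76%. These lengths were not scaled to the list totals, which were 0.915 times as long in knockdown libraries on average, without overlap.

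V segments differed by locus in how many were open. A region lay within 500 bp in all 6 libraries for 9 of 48 heavy V segments, 7 of 44 kappa and 17 of 37 lambda V segments. For V pseudogenes, segments that cannot encode a V domain, the counts were 28 of 79 in heavy (27 separate regions), 0 of 32 in kappa and 3 of 36 in lambda. Among the heavy chain pseudogenes were 12 of 17 members of IGHVIII and 5 of 22 of IGHVII, families made up of pseudogenes. Over segments and pseudogenes together, IGHV4 had 5 of 9 and IGHV3 had 12 of 48, while IGHV1 had 0 of 15 and IGHV2 had 0 of 4. In kappa, IGKV6 had 3 of 3, IGKV1 had 3 of 29 and IGKV2 had 0 of 27. In lambda, IGLV1 had 5 of 8, IGLV4 had 3 of 3, IGLV3 had 5 of 23 and IGLV2 had 2 of 9. These families were counted after values were seen.

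The open heavy chain V segments were IGHV6-1, IGHV3-7, IGHV3-20, IGHV4-34, IGHV4-39, IGHV3-49, IGHV4-59, IGHV3-64 and IGHV3-72. IGHV4-34 was the strongest, with −log10 q of 153, 209 and 135 in controls and 46.0, 61.9 and 78.3 in knockdown libraries. IGHV6-1, the V segment nearest to the D segments, was among the weakest (20.3, 50.7 and 26.4 against 9.38, 4.55 and 9.79), and IGHV3-64, whose recombination heptamer is printed above, had 54.3, 64.5 and 43.5 against 9.13, 18.4 and 20.1. In none of these 3 did a knockdown library reach a control. The open kappa V segments were IGKV3-20, IGKV6-21 (116, 122 and 105 against 20.05, 34.0 and 62.3), IGKV1-27, IGKV1-37, and the distal IGKV1D-37, IGKV6D-21 (99.5, 134 and 87.1 against 32.7, 31.5 and 42.5) and IGKV6D-41. IGKV1-27 was the exception in kappa, with 10.1, 6.91 and 7.64 against 11.0, 15.3 and 3.57, which overlap.

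Lambda had the most open V segments, from IGLV4-69 at the far end to IGLV4-3 near the J segments, with IGLV4-60, IGLV6-57, IGLV11-55, IGLV1-51, IGLV9-49, IGLV1-47, IGLV1-44, IGLV1-40, IGLV1-36, IGLV2-33, IGLV3-32, IGLV3-25, IGLV3-19, IGLV3-16 and IGLV3-9 between them. IGLV1-47 was strongest in the controls (229, 270 and 247 against 73.9, 83.8 and 99.2), then IGLV6-57 (216, 240 and 222 against 95.2, 87.7 and 105) and IGLV4-69 (206, 260 and 168 against 34.2, 60.7 and 71.2). At IGLV1-40 the groups stood farther apart: 60.7, 68.2 and 59.1 in controls and 7.40, 5.81 and 15.7 in knockdown libraries, or the 59.7, 57.9 and 59.1 percentile against 27.2, 19.8 and 39.9. Its fold was 15.8, 17.7 and 14.8 against 5.13, 4.75 and 7.33. This is the region that holds the LOC101929255 window printed above, and it was chosen for its rank after values were seen.

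**Figure D3:**
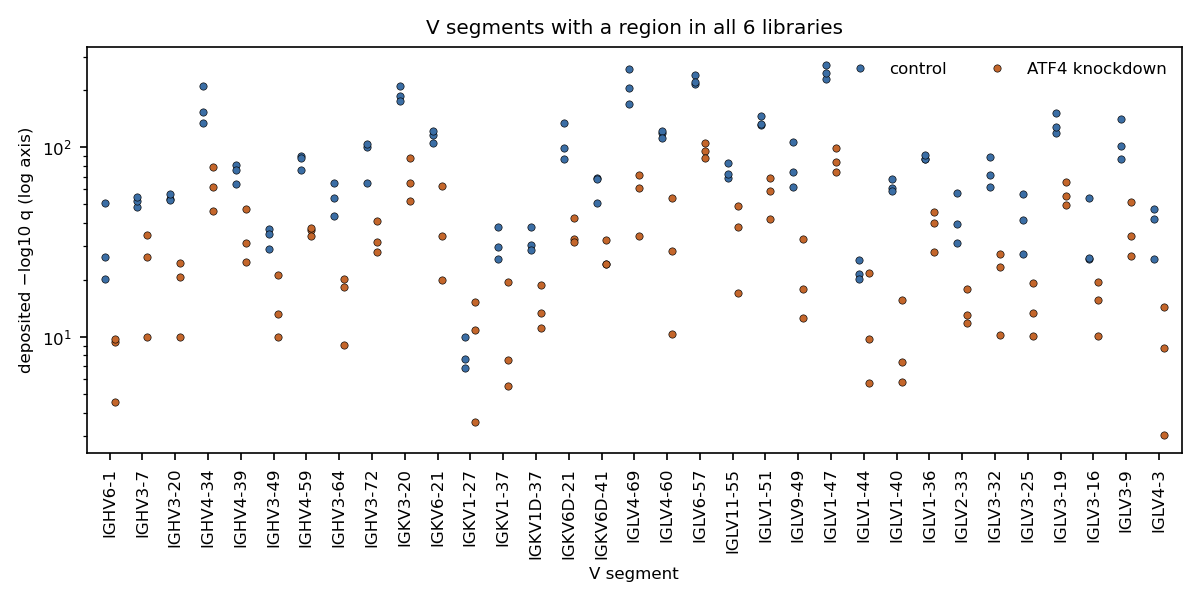
Deposited −log10 q (log axis) of the region at each V segment with a region in all 6 libraries, controls and ATF4 knockdown side by side, 1 point per library. Knockdown points lie below the control points except at IGKV1-27 (10.1, 6.91 and 7.64 against 11.0, 15.3 and 3.57) and IGLV1-44 (25.4, 21.6 and 20.2 against 5.76, 9.75 and 21.7), where they overlap. The median −log10 q of whole lists was also lower in knockdown libraries (mean 3.81 against 8.99 in controls). Ranked within each list, 9 of 36 regions at V segments were lower in every knockdown library.

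The inverted kappa copy allows V segments to be compared with their twins. Of 33 proximal and distal pairs, 2 were open on both sides in all 6 libraries, 2 on the proximal side alone, 0 on the distal side alone and 29 on neither, of which 19 had no region in any library. The pairs open on both sides were IGKV6-21 with IGKV6D-21 and IGKV1-37 with IGKV1D-37 (38.1, 29.8 and 25.6 against 5.52, 19.5 and 7.60 for the proximal and 30.4, 28.6 and 37.9 against 13.4, 11.2 and 18.8 for the distal member). IGKV3-20 stood at 175 to 211 in the controls, whereas its twin IGKV3D-20 had 22.1, 11.6 and 4.74 there and 4.19 and 2.24 in knockdown libraries 1 and 3, with none listed in knockdown 2. Near-identical copies may share reads, and how reads that fit several places were treated is not given in the sources used here. The proximal cluster held 30, 33 and 28 merged peaks in controls and 24 in each knockdown library, covering 2.64, 2.71 and 2.44% against 1.79, 1.71 and 1.86% of its 468.5 kb. The distal cluster held 31, 30 and 29 against 25, 33 and 34, covering 3.04, 2.86 and 2.75% against 2.17, 2.63 and 2.55% of its 383.6 kb. Covered length did not overlap between groups in either cluster, and peak number overlapped in the distal one alone. These lengths were not scaled to the list totals, which did not overlap either and were 0.915 times as long in knockdown libraries on average. The difference between the clusters was not tested.

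Percentile ranks allow for the overall drop in −log10 q. Of the 225 regions of the loci listed in all 6 libraries, 40 (17.8%) ranked lower in every knockdown library than in every control, where 13.4% of all 68050 such regions did, and 25 (11.1%) ranked higher, where 13.8% of all did. By fold, 41 (18.2%, against 13.0% of all) ranked lower and 43 (19.1%, against 19.7%) higher. Lambda held 20 of the 40 lower regions among its 72 (27.8%) and 7 higher (9.72%), with 24 lower and 7 higher by fold. Heavy had 12 of each among 104 by −log10 q but 11 lower and 29 higher by fold, and kappa 8 lower and 6 higher among 49. Of the 36 regions at V segments, 9 ranked lower and 0 higher by −log10 q, and 14 lower and 1 higher by fold. The lower ones by −log10 q were at IGKV3-20, IGKV6D-21, IGLV4-69, IGLV4-60, IGLV6-57, IGLV1-47, IGLV5-45, IGLV1-40 and IGLV3-16, 2 in kappa, 7 in lambda and 0 in heavy. The region at IGLV5-45 was listed in all 6 libraries (16.5, 13.3 and 8.56 against 2.50, 2.09 and 0.992) but reached −log10 q of 2 in 5, so it is not among the open segments above. Whether the loci differ in this was not tested. As a level, the median pileup of the 225 regions was 22.9, 28.7 and 22.2 times the library background in controls and 13.9, 16.7 and 15.9 times in knockdown libraries, a ratio of 0.632, where that of all such regions was 0.640.

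**Figure D4:**
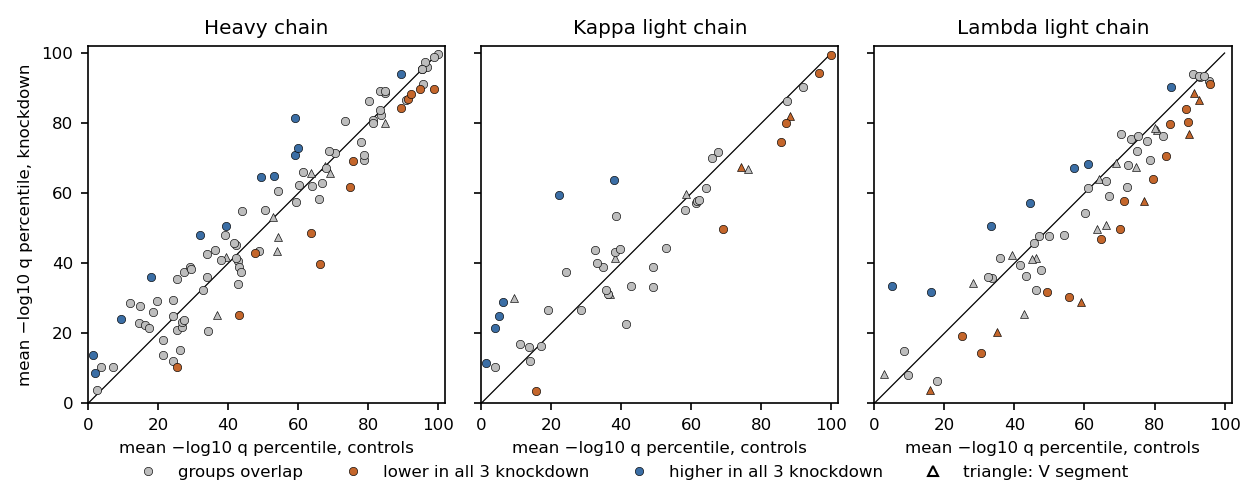
Mean percentile of −log10 q in the controls (x axis) and in knockdown libraries (y axis) for each region listed in all 6 libraries, by locus; the line marks equal rank, triangles are V segments, and colours mark regions whose groups do not overlap. In lambda 20 of 72 regions (27.8%) lie below the line without overlap and 7 (9.72%) above it. Of all regions listed in all 6 libraries, 13.4% and 13.8% do.

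Strong regions recurred at like distances downstream of both alpha constant genes. Within 40 kb downstream of IGHA2, 6 of 9 regions were present in all 6 libraries, at 29.4, 26.0, 19.7, 10.7, 4.02 and 0.496 kb from the gene. Within 40 kb downstream of IGHA1 these were 7 of 12, at 29.3, 25.8, 20.2, 10.1, 6.96, 5.76 and 0.236 kb. These stretches are copies of each other and hold the 3′ regulatory regions, enhancers that act on the whole locus. As with the kappa copies, they may share reads, so both sides may not be separate measurements. The distance of 40 kb was set after values were seen.

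The region 4.02 kb downstream of IGHA2, at chr14:105581500-105582918, had the highest control values of these 13. Its −log10 q was 396, 477 and 415 in controls and 82.4, 90.5 and 149 in knockdown libraries, or the 98.3, 99.0 and 98.6 percentile against 87.0, 88.5 and 93.5. Its pileup was 190, 242 and 183 times the library background against 62.1, 77.7 and 101 times. Downstream of IGHA1, at 5.76 kb, chr14:105700752-105701404 had 65.3, 92.8 and 82.5 against 6.18, 17.9 and 19.4. In both regions the knockdown libraries lay below every control, and the mean pileup over library background was 0.392 and 0.396 times that of the controls, where the other 11 had ratios of 0.509 to 0.739.

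Those at 26.0 kb from IGHA2 (321, 288 and 275 against 138, 154 and 189) and at 25.8 kb from IGHA1, given above, overlapped in rank between groups, while those at 10.7 kb (297, 260 and 289 against 101, 89.3 and 123) and 10.1 kb (268, 239 and 212 against 82.3, 87.1 and 115) ranked lower in every knockdown library. Over both sides, 6 of 13 regions ranked lower by −log10 q and 0 higher, where 13.4% and 13.8% of all regions listed in all 6 libraries did. By fold, which divides by the local background, 0 ranked lower and 9 higher, where 13.0% and 19.7% of all did. The 2 deposited measures thus differed in direction here. The local background at heavy chain summits, given above, was higher in the controls, and its part in either rank was not tested.

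**Figure D5:**
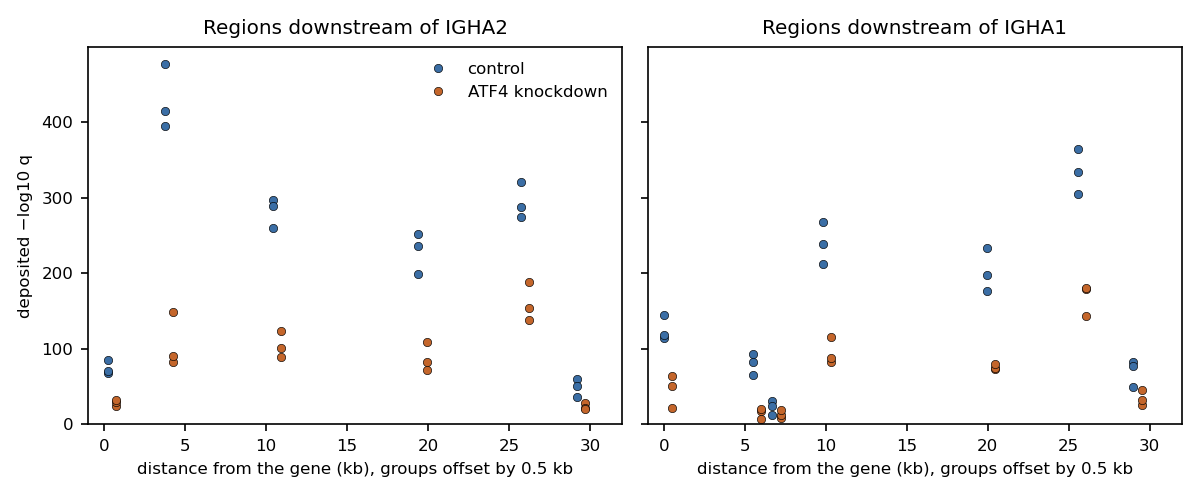
Deposited −log10 q of the regions present in all 6 libraries downstream of IGHA2 (left) and IGHA1 (right), against distance from the gene (kb); 1 point per library, with the groups set 0.5 kb apart. Similar distances recur on both sides, and the region 4.02 kb from IGHA2 shows the widest gap between controls (396 to 477) and knockdown (82.4 to 149).

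Between IGHM and IGHJ6, where the intronic enhancer and the switch repeats lie, 3 of 3 regions were present in all 6 libraries. The region over MIR4537, chr14:105858747-105860372, had −log10 q of 86.2, 88.2 and 78.9 in controls and 34.2, 26.9 and 46.6 in knockdown libraries, with ranks that overlap between groups. At 0.758 kb from IGHJ6, chr14:105861996-105862438 had 61.3, 93.0 and 67.7 against 18.9, 22.9 and 13.3, or the 60.1, 67.9 and 63.2 percentile against 53.2, 57.0 and 35.5. The region between it and IGHJ6, at 0.246 kb, is the one given above for that segment. Downstream of IGKC, 3 of 7 regions were present in all 6, at 24.3, 18.6 and 10.8 kb, and 2 of them ranked lower. The nearest, chr2:88845549-88846596, had 137, 177 and 203 against 43.3, 38.2 and 64.7. Downstream of IGLC7, 6 of 9 were present in all 6, the strongest at 5.53 kb (271, 435 and 278 against 124, 85.0 and 142) and 12.1 kb. Over these 5 sides 10 of 25 regions ranked lower and 1 higher by −log10 q, where 13.4% and 13.8% of all regions listed in all 6 libraries did. By fold 1 ranked lower and 12 higher, where 13.0% and 19.7% of all did. These sides were set after values were seen, and the difference from all regions was not tested.

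Only a few regions of the loci were found in a single group. Present in all 3 controls and listed in no knockdown library were 7 of 507 (1.38%), where 1.50% of all regions were. The reverse held for 1 region (0.197%), where 0.102% of all were. In kappa the control regions lay 82 bp from IGKV3-15 (chr2:89085772-89086326, −log10 q 3.27, 5.35 and 4.07), 2.60 kb from IGKV2-29 (chr2:89231184-89231581) and 1.51 kb from IGKV1D-37 (chr2:89882954-89883230, 7.76, 11.4 and 9.93). In lambda they lay 2.15 kb from TOP3B, a topoisomerase gene (chr22:21984941-21985202), near ZNF280B (chr22:22479048-22479446, 3.92, 6.12 and 5.43) and in RSPH14 and GNAZ (chr22:23085922-23086507). The heavy chain had 1, near CRIP1 (chr14:105485851-105486058, 18.6, 20.5 and 7.76). The knockdown region was chr22:22820755-22820937 in the lambda V cluster (3.39, 2.25 and 5.05). Nearly all are weak, and the counts move with the libraries used: 12 without control 2, 15 without knockdown 2 and 16 without knockdown 3 for the controls, and 2 without control 1, knockdown 1 or knockdown 2 for the knockdown.

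Stretches without any listed peak were long in kappa and short in the other loci. In all 6 libraries together, 7 stretches over 50 kb took 47.5% of the kappa window, against 20.6% of the genome, and heavy and lambda had 0. The longest ran from chr2:89330095 to 89585323 (255 kb), between the V clusters, with the V segment IGKV2-40 at its edge. A second of 178 kb (chr2:89585845-89764029) followed, and a single region at LOC107985911 (chr2:89585324-89585844) stood between them with −log10 q of 269, 225 and 213 in controls and 135, 92.9 and 102 in knockdown libraries. The third, 125 kb (chr2:90325421-90450000), reached the end of the window. No genome sequence was used, so gaps of the assembly or repeats that reads cannot be placed in were not tested.

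From the kappa J segments into the proximal V cluster, blank stretches of 91.5 kb (chr2:88858502-88949974, chosen after values were seen) and 98.1 kb (chr2:88950323-89048459) came next. The former held the 5 J segments, the 3 V segments IGKV4-1, IGKV5-2 and IGKV1-5, and 2 V pseudogenes. The latter held 7 V segments from IGKV1-6 to IGKV1-13 and 1 V pseudogene. In the heavy chain the longest was 41.5 kb (chr14:105863216-105904710). It began inside IGHJ6 and ended at IGHD3-9, and held 18 D and 8 J segments. The next, 34.4 kb (chr14:106082001-106116410) with IGHV3-64D and IGHV5-10-1, and 24.6 kb (chr14:106116614-106141169) with IGHV3-11 to IGHV3-13, lay in the V cluster. Those named in lambda were 48.4 kb (chr22:22249379-22297763) and 30.2 kb (chr22:22126396-22156611), neither of which held a V segment. Whether any of this DNA is deleted or rearranged in KMS-11 was not tested, since a peak list cannot tell closed from missing DNA.

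The lengths of these stretches were close between groups. The longest in the heavy chain was 78.2, 41.5 and 78.2 kb in controls and 78.5, 78.1 and 78.1 kb in knockdown libraries (exact permutation p = 0.6), a difference of 12.3 kb that became 0.101 kb without control 2, where 2 peaks of at most −log10 q 3.22 broke the stretch chr14:106063242-106141313. In kappa it was 255, 259 and 259 kb against 259 kb in each knockdown library (difference 1.2 kb, exact permutation p = 0.1, adjusted over the loci 0.3; 0.0725 kb without control 1). In lambda it was 48.5 to 48.6 kb in every library but knockdown 1, with 68.2 kb (difference 6.56 kb, exact permutation p = 0.3; 0.00817 kb without knockdown 1). Stretches blank in one group alone were crossed by weak peaks, counting only peaks wholly inside a stretch. Peaks over an edge were left out. In those named here they reached −log10 q of 10.95 in knockdown 1 at chr14:105801630-105837274 and 29.7 in knockdown 2 at chr22:22629121-22666421. The knockdown stretch chr2:90132481-90200709 in the distal kappa cluster (68.2 kb) held a peak of −log10 q 12.1 in control 2 and 3.43 in control 3. The knockdown stretch chr22:22464358-22508327 (44.0 kb) held the control region near ZNF280B. The control stretches chr14:105801630-105837274 (35.6 kb) and chr2:89768116-89826364 (58.2 kb) held knockdown peaks of at most 2.20 and 1.71. Of the control stretches in lambda, chr22:22111725-22156611 (44.9 kb) held 2 peaks of at most 2.88 in knockdown 3, and chr22:22629121-22666421 (37.3 kb) peaks of at most 1.65.

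Covered length in 50 kb windows, scaled to the list totals, was tested over the genome with limma. None of the 79 windows of the loci passed an adjusted p of 0.05, as none of all 47529 did (0% in either direction). With an unadjusted limma p under 0.05 there were 14 lower and 0 higher of the 79 in the loci, and 4292 lower and 4318 higher of the 47529 over the genome. In the loci 61 windows (77.2%) had a lower mean in the knockdown and 18 a higher one, where 51.4% of all windows had a lower mean. The median log2 differences were −0.13 for heavy, −0.10 for kappa and −0.11 for lambda, against −0.01 over all windows. Over the loci together the median of −0.11 became −0.01 with summits of −log10 q of at least 2 alone and 0.05 with those of at least 5. The smallest p was in kappa at chr2:89050001-89100000 with IGKV2-14, IGKV3-15 and IGKV1-16, where 1184, 1404 and 1136 bp were covered in controls and 233, 404 and 419 bp in knockdown libraries (log2 difference −1.40, SE 0.25, limma adjusted p = 0.0795). The other kappa window, chr2:89300001-89350000 with IGKV1-39 and its neighbours, had a difference of −0.66 (SE 0.22, limma adjusted p = 0.178). For heavy they were chr14:105700001-105750000, with IGHA1 and IGHG1 (4768, 4774 and 5362 bp against 3784, 3752 and 4262 bp, log2 difference −0.32, SE 0.08, limma adjusted p = 0.112), and chr14:106600001-106650000 around IGHV4-59 (−0.53, SE 0.16, adjusted p = 0.149). In lambda they were chr22:22850001-22900000, with IGLV4-3, IGLJ1 and IGLC1 (−0.32, SE 0.11, limma adjusted p = 0.184), and chr22:22450001-22500000 with ZNF280B (−1.36, SE 0.52, adjusted p = 0.223). Other settings made calls in the loci and over the genome. With 100 kb windows 2 of 42 in the loci passed as lower and 0 as higher, where 0.927% and 1.58% of all did. With no scaling to the list totals 2 of 79 passed as lower and 0 as higher, where 1.19% and 0.343% of all did. They lay around IGKV3-15 and IGHA1 in both cases. With limma without its trend and robust settings the window of IGKV3-15 passed as lower and 0 as higher, where 0.537% and 0.858% of all did. With summits of −log10 q of at least 5 alone 2 of 77 passed as lower and 4 as higher, where 5.43% and 4.69% of all did.

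Genes that build, regulate or secrete antibodies were followed through the covered length within 10 kb of their ends. Of 20 genes of V(D)J recombination and class switching, 23 factors that bind immunoglobulin promoters and enhancers and 18 of antibody assembly and secretion, 0 passed, as 0% of all 18606 genes did in either direction (limma). With an unadjusted limma p under 0.05 there were 3 lower and 1 higher, 3 lower and 2 higher, and 5 lower and 0 higher, against 1689 lower and 910 higher of all genes. Median log2 differences were −0.01, −0.09 and −0.11, against −0.02 for all genes. Listed genes passed under other settings, as did genes elsewhere. Within 50 kb 3 of 61 passed as lower and 0 as higher (1.95% and 2.17% of all genes), and with no scaling 7 of 61 and 0 (3.49% and 0.236% of all). With summits of −log10 q of at least 5 alone 2 of 59 passed as lower and 27 as higher (3.17% and 30.7% of all).

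The smallest p in the recombination list belonged to PRKDC, the kinase of DNA end joining, with 1973, 2460 and 2389 bp covered in controls and 3053, 2992 and 2756 bp in knockdown libraries (log2 difference 0.35, SE 0.10, limma adjusted p = 0.199). PAXX, another end-joining factor, had a difference of −0.39 (SE 0.12, adjusted p = 0.213). Among the factors, IKZF1, the lymphoid regulator Ikaros, had 1537, 1527 and 1729 bp against 2412, 2214 and 2358 bp (log2 difference 0.49, SE 0.10, limma adjusted p = 0.108). POU2AF1, the coactivator of the octamer-binding factors, had 4060, 4743 and 5225 bp against 3315, 3014 and 3713 bp (−0.46, SE 0.11, limma adjusted p = 0.144). In the secretion list TXNDC5, a disulfide isomerase of the endoplasmic reticulum, had 6310, 6931 and 6930 bp against 4730, 5645 and 5111 bp (−0.37, SE 0.07, limma adjusted p = 0.108). ELL2, an elongation factor that favours the secreted form of the heavy chain messenger RNA, had a difference of −0.35 (SE 0.09, adjusted p = 0.172). In each of these 6 genes the controls and knockdown libraries did not overlap, without passing the test over all genes. They were named for the smallest p of their list, a choice that favours genes without overlap. How many of all genes do not overlap was not counted.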

How the data were processed

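ATAC-seq peak lists of 6 KMS-11 libraries were used, 3 per group, grouped by their treatment labels. Per the labels' protocols, Tn5 transposase acted on nuclei, and the fragments were amplified by PCR and selected by size with beads. Per the submitters' processing notes MACS2 and hg38 were used; each library has its own list. Read alignment, read filters, the caller's settings and any shift of reads are not given in the sources used. The deposited fold is a ratio of pileup to local background at a summit, each with 1 added. The deposited −log10 p and −log10 q come from the caller's test within a library; the lowest −log10 p listed is at or above 2. The deposited score follows the −log10 p and was not used in any result. These are the authors' values and serve only for description, ranks and filters inside a list.

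Pileup and local background were recovered from those deposited columns: the whole number of tags whose Poisson p matched within 0.01 on the −log10 scale (found for 100% of summits). The most common local background was taken as the library background, 2.15 to 3.52 tags, the measure of depth. Presence of a region meant overlap with a summit of −log10 q of at least 2, absence that no listed peak overlapped. Gene positions, promoter windows and hairpins came from RefSeq tables on GRCh38.p14, the assembly of hg38, which held 19974 protein-coding genes. A segment had a region when one lay within 500 bp.

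Values per library were tested by two-sided exact permutation (scipy 1.17.1 under Python 3.11.15). Base pairs covered in 50 kb windows, or within 10 kb of a gene, were scaled to a common list total and fitted as log2(value + 200 bp) with limma 3.58.1 (R 4.3.3, trend and robust settings, Benjamini-Hochberg over all windows or genes covered in at least 3 libraries, threshold 0.05). Differences on this scale understate changes of windows with little covered DNA. The fit was tested on simulated data. Alternatives were other windows, offsets, filters, scalings and left-out libraries, and a replicate block.

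The loci and lists were chosen with earlier results of these data known. Named are, per locus, the 5 regions in all 6 libraries with the highest lowest −log10 q, regions of a single group, the 3 longest blank stretches and the 2 longest of a single group, the 2 windows of smallest p, constant and J genes, V segments open in all 6 libraries and 2 genes per list. In lambda, 1 region and 1 blank stretch chosen by this rule are not reported here, nor is 1 marker gene. The heptamer, nonamer, pentamers and CpG counts, the rank comparisons of single regions, the families, kappa pairs and downstream sides were added after values were seen.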

Additional observations from a re-analysis of the deposited data

How the results depend on the processing

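Of 139 values under other settings, 120 kept their direction and side of the threshold. The shares of heavy and kappa turned to log2 ratios of 0.0492 and 0.0365 with summits of −log10 q of at least 5 alone; leaving out a library gave −0.20 to −0.13 for heavy, −0.15 to −0.09 for kappa and −0.20 to −0.07 for lambda. Windows of the loci passing limma as lower numbered 2 with 100 kb windows (249 over the genome), 2 with that stricter filter (1951), 2 with no scaling (565) and 1 without trend and robust settings (255); as higher, 4 with the stricter filter (1685); and 0 whichever library was left out. No scaling moved the median of all windows to −0.12. Control regions numbered 2 with presence at −log10 q of at least 5 and 9 to 16 with a library left out, where fewer libraries need to match, and knockdown regions 0 and 1 to 2. Listed genes passing as lower numbered 3 of 61 within 50 kb (1.95% of all genes), 2 of 59 with the stricter filter (3.17% of all) and 7 of 61 with no scaling (3.49% of all), and as higher 27 of 59 with the stricter filter (45.8%, against 30.7% of all). The difference in longest blank stretch ranged from 0.101 to 18.4 kb for heavy, 0.0725 to 1.77 kb for kappa and 0.00817 to 9.85 kb for lambda with a library left out. The cause of these shifts was not tested. Same-numbered libraries correlated by 0.0139, 0.0329 and 0.0420, so the numbers were not taken to pair them. With a replicate block the shares had log2 ratios of −0.16, −0.12 and −0.14 for heavy, kappa and lambda, and 0 windows and 0 listed genes passed. A region absent from a list was not detectable at that list's depth, which does not show closed DNA.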
